A study of Mus musculus with 6 samples.

Results

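The genes described here encode enzymes that break down the branched-chain amino acids leucine, isoleucine and valine. They are the 10 mouse genes Bcat1, Bcat2, Bckdha, Bckdhb, Dbt, Bckdk, Ppm1k, Acad8, Hibch and Hibadh, chosen by symbol for their place in the pathway, out of 55487 genes listed in the files. All 10 were matched to an Ensembl identifier, and all 10 passed the filter on low counts. Their RNA was measured in LSK cells (lineage negative, c-KIT positive, SCA1 positive), a rare population of the bone marrow that contains the blood stem cells and multipotent progenitors. The groups were 3 wild type mice (WT) and 3 Brm-/- mice (BrmKO), on a strain background given as C56Bl/6 in the labels. Brm, now named Smarca2, encodes a motor subunit (ATPase) of SWI/SNF complexes, which move nucleosomes. The sources used here do not give the animals' age, the part of Brm that was inactivated or whether it was lost in every cell of the body.

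Breakdown of the 3 amino acids starts with shared steps. A branched-chain aminotransferase, BCAT1 in the cytosol or BCAT2 in mitochondria, moves the amino group to 2-oxoglutarate and leaves a branched-chain keto acid. The branched-chain keto acid dehydrogenase complex (BCKDH) then removes carbon dioxide irreversibly. BCKDHA and BCKDHB form its E1 component, DBT is its lipoate-bearing E2 core, and DLD is an E3 that it shares with other dehydrogenase complexes. The kinase BCKDK switches the complex off by phosphorylating BCKDHA, and the phosphatase PPM1K switches it on again. The branches then part. ACAD8, HIBCH and HIBADH serve the valine branch as acyl-CoA dehydrogenase, thioester hydrolase and alcohol dehydrogenase.

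Libraries held 28.01 to 36.46 M reads in genes, and reads outside genes made up 5.79% to 9.29%. The design text gives 3 mice a group. The p-values set the difference between the groups against the spread between these libraries, which edgeR estimates partly from other genes. Smarca2 had 6284, 6932 and 4270 reads in WT and 805, 761 and 958 in BrmKO (log2 fold change -2.72 ± 0.13 SE, edgeR), matching the genotype labels. Kit, which encodes the c-KIT of the sort, stood at 848 to 1030 CPM (reads per 1000000 reads in genes, library totals TMM-scaled) and Cd34 at 968 to 1056, while Ly6a, which encodes SCA1, stood at 18.7 to 35.6. The 9 LSK and progenitor markers summed to 2706 to 2924 CPM in WT and 2944 to 3054 in BrmKO. Summed levels of some marker lists of other cells also lay apart between the groups, while those of the granulocyte, monocyte and erythroid lists overlapped. The 6 stromal and endothelial markers summed to 41.3 to 182 CPM in WT and 18.5 to 39.5 in BrmKO. The 4 dendritic and MHC class II markers summed to 147 to 421 and 423 to 673, and the 4 platelet markers to 573 to 756 and 386 to 545. The 4 B cell markers summed to 635 to 1300 and 558 to 627, and the 4 T cell markers to 4.06 to 5.09 and 5.98 to 7.69, with Cd3e at 0 reads and Cd4 at 3.78 to 5.44 CPM. Of these lists, 1 gene, the platelet marker Pf4, passed the test between genotypes. The part of such cells in the values below was not tested, and in these bulk samples fewer cells and less RNA per cell cannot be told apart.

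None of the 10 enzyme genes differed between BrmKO and WT past the threshold. With edgeR's quasi-likelihood test and Benjamini-Hochberg adjustment over 15691 genes, 0 of 10 had an adjusted p under 0.05, where 0.140% of all genes tested did, and DESeq2 and limma-voom also called 0. At an unadjusted p under 0.05 there were 0 of 10, where 5.85% of all genes had one. The libraries of the genotypes overlapped for each of the 10. Of all genes, 11.1% had groups that did not overlap, and 10 genes are too few to differ clearly from that share. Fold changes were small. Of the 10 genes, 7 lay above 0 and 3 below, where 48.8% of all genes lay above 0, with a median log2 fold change of 0.06 against -0.005 for all genes tested. The range ran from -0.07 for Dbt to 0.16 for Acad8. A missed threshold does not show equal levels, so each gene is given below with the 95% interval of its fold change, which is not adjusted for the number of genes.

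**Figure D1:**
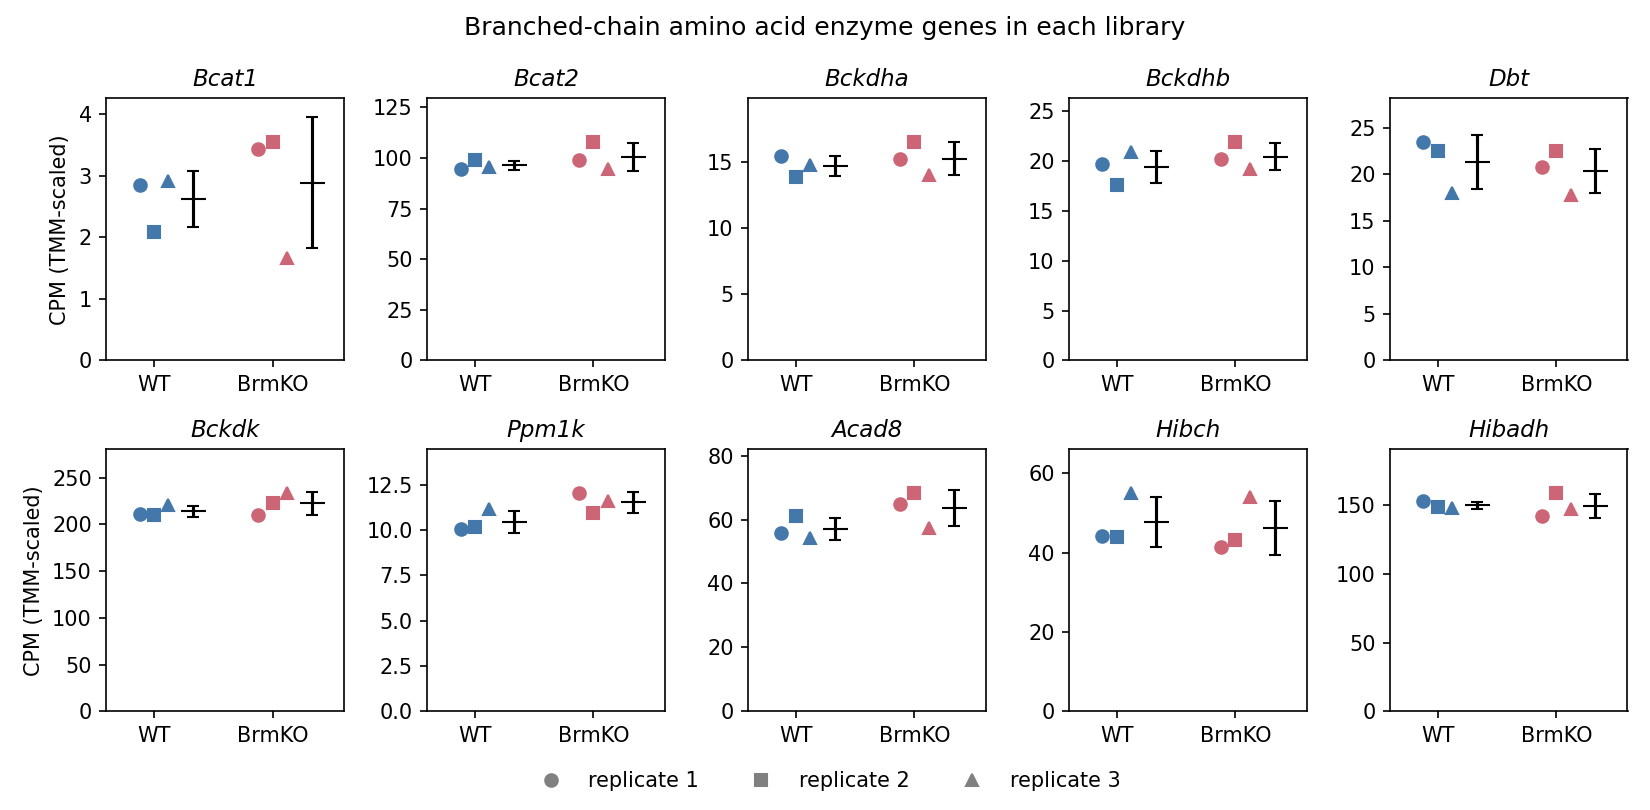
Level of each gene in every library, in TMM-scaled CPM (vertical axes from 0, a scale per gene) for WT (blue) and BrmKO (red). Symbols mark the replicate number and black bars the mean and SD of 3 libraries. The genotypes overlap in each panel, and the triangles of replicate 3 lie highest for Hibch and lowest for Dbt in both genotypes.

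The aminotransferases come first. The mitochondrial Bcat2 (ENSMUSG00000030826.19, GRCm38 chromosome 7, 45570153 to 45589711, plus strand) stood at 94.7, 98.8 and 95.4 CPM in WT and 98.8, 108 and 94.5 CPM in BrmKO. The highest value was in BrmKO replicate 2 and the lowest in BrmKO replicate 3, so the BrmKO libraries spanned the WT ones. Its means were 96.3 ± 2.19 and 100 ± 6.89 CPM (SD, n = 3), a log2 fold change of 0.06 ± 0.08 SE (edgeR, adjusted p = 0.999). The 95% interval ran from 0.913-fold to 1.19-fold.

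The cytosolic Bcat1 (ENSMUSG00000030268.17, chromosome 6, 144993835 to 145076184, minus strand) was scarce. It had 103, 68 and 83 reads in WT and 103, 102 and 57 in BrmKO, that is 2.84, 2.09 and 2.92 CPM against 3.44, 3.55 and 1.66 CPM. BrmKO held both the 2 highest libraries and the lowest one. The coefficient of variation was 17.5% in WT and 36.9% in BrmKO. The log2 fold change was 0.14 ± 0.36 SE (edgeR, adjusted p = 0.999), and the 95% interval was wide, from 0.632-fold to 1.91-fold. Without both libraries numbered 3 the log2 fold change was 0.50, and without BrmKO replicate 2 it was -0.04, neither past the threshold.

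Bcat2 RNA exceeded Bcat1 RNA by a wide margin in LSK cells of either genotype. Levels of different genes are compared per length, as TMM-scaled CPM per kilobase of annotated exon (RPKM). In WT, Bcat2 had 24.7 ± 0.561 RPKM and Bcat1 0.281 ± 0.0490 RPKM (SD, n = 3), above 82.6% and 10.9% of the tested genes. The ratio of Bcat2 to Bcat1 in the 3 libraries of a genotype was 79.7, 113 and 78.2 for WT, and 68.6, 72.7 and 136 for BrmKO. With the longest transcript as the length its mean rose from 90.3 to 142 in WT and from 92.6 to 146 in BrmKO. The ratio moved mostly with the few Bcat1 reads, and its genotypes overlapped.

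The start regions of these paralogous genes are shown because their RNA levels lie so far apart. Each line gives the 250 bases before a RefSeq start on the gene's own strand (GRCm38.p6). Capitals mark the only match to any of 6 motifs searched. The RefSeq start nearest the GENCODE start of the gene was taken, and which start LSK cells use was not tested.
Bcat1, chr6:145076158-145076407, minus strand: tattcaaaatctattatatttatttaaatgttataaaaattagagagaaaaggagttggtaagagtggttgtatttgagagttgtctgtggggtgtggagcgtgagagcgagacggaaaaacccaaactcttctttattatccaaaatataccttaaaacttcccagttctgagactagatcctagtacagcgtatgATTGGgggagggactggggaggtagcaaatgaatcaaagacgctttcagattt
Bcat2, chr7:45569903-45570152, plus strand: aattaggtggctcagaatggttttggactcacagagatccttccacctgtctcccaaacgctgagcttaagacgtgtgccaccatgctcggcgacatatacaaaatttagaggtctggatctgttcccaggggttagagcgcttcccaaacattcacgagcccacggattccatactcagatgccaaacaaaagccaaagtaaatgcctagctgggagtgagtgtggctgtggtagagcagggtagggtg
The capitals in the Bcat1 line are the reverse complement of CCAAT, the NF-Y box, which the Bcat2 line does not hold. The full window also takes in 50 bases after the start. In it Bcat1 has 6 CpG dinucleotides and 41% GC and Bcat2 has 13 and 54%, against a median of 7 CpG over 32851 mouse windows.

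RefSeq windows were found for 9 of the 10 genes. CCAAT was present on either strand in 6 of the 9 (Bcat1, Bckdhb, Bckdk, Ppm1k, Acad8 and Hibadh), where 37.4% of all windows hold it. The other motifs were absent from the 9 windows. They were the E-box CACGTG (7.15% of all windows), the ETS family motif CCGGAAG (8.86%), the NRF1 motif (0.971%), TCAAGGTCA of ESRRA (0.423%) and CAAAGTCCA of HNF4A (0.475%). Since CCAAT alone matched, no match overlapped another motif. The CpG number ran from 6 for Bcat1 to 28 for Hibadh. A match describes letters and is not a measured binding site. The RefSeq start used lies 220 bases from that of GENCODE for Bckdha, 109 for Hibch and 89 for Hibadh.

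The subunits of the BCKDH complex were measured next. Bckdhb, which encodes the E1 beta subunit (ENSMUSG00000032263.14, chromosome 9, 83925145 to 84124240, plus strand), stood at 19.7, 17.6 and 20.9 CPM in WT and 20.2, 21.9 and 19.2 CPM in BrmKO. The groups overlapped, and the log2 fold change was 0.08 ± 0.13 SE with an interval of 0.859-fold to 1.29-fold. Dbt, the E2 core (ENSMUSG00000000340.10, chromosome 3, 116513070 to 116549981, plus strand), stood at 23.5, 22.5 and 18.0 CPM in WT and 20.8, 22.5 and 17.8 CPM in BrmKO. Its lowest value in either genotype was in replicate 3. Its log2 fold change was -0.07 ± 0.15 SE, with an interval of 0.752-fold to 1.21-fold.

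Bckdha, the E1 alpha subunit that carries the regulatory phosphorylation (ENSMUSG00000060376.7, chromosome 7, 25629946 to 25658981, minus strand), stood at 15.4, 13.9 and 14.8 CPM in WT and 15.2, 16.5 and 14.0 CPM in BrmKO. The lowest value was in WT replicate 2 and the highest in BrmKO replicate 2, with the other 4 between. The log2 fold change was 0.05 ± 0.14 SE (edgeR, adjusted p = 0.999), and the interval ran from 0.833-fold to 1.29-fold. Its level per length depends on how its exons are counted. Of its 1899 exon bases, 1171 (61.7%) also belong to exons of B3gnt8, a glycosyltransferase gene on the opposite strand. The library kit does not mark the strand, and HTSeq in its usual mode sets aside reads that fall on exons of different genes. The sources used here give neither the strand setting nor the mode of the counting. Reads set aside as ambiguous between genes made up 6.23% to 6.47% of a library. How many of them came from these exons was not tested.

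Over all exons, Bckdha stood at 7.74 ± 0.410 RPKM in WT, Bckdhb at 10.7 ± 0.914 and Dbt at 6.37 ± 0.869 (SD, n = 3). With the same count divided by only the 728 bases that B3gnt8 does not cover, Bckdha rose to 20.2 ± 1.07 RPKM, from below Bckdhb to above it. Reads on these bases alone were not counted, so 20.2 is its level only if no counted read came from the shared bases. The ratio of Bckdha to Bckdhb by all exons was 0.722 ± 0.043 for WT and 0.709 ± 0.014 for BrmKO, and 1.88 and 1.85 by the bases no other gene covers, a length chosen after the data were seen. The order of the E1 subunit genes is therefore not settled by these counts. The ratio of Bckdhb to Dbt, neither of which shares exon bases with another gene, per library was 1.56, 1.45 and 2.15 for WT, and 1.804, 1.809 and 2.003 for BrmKO. It was highest in replicate 3 of either genotype, where Dbt was lowest.

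**Figure D2:**
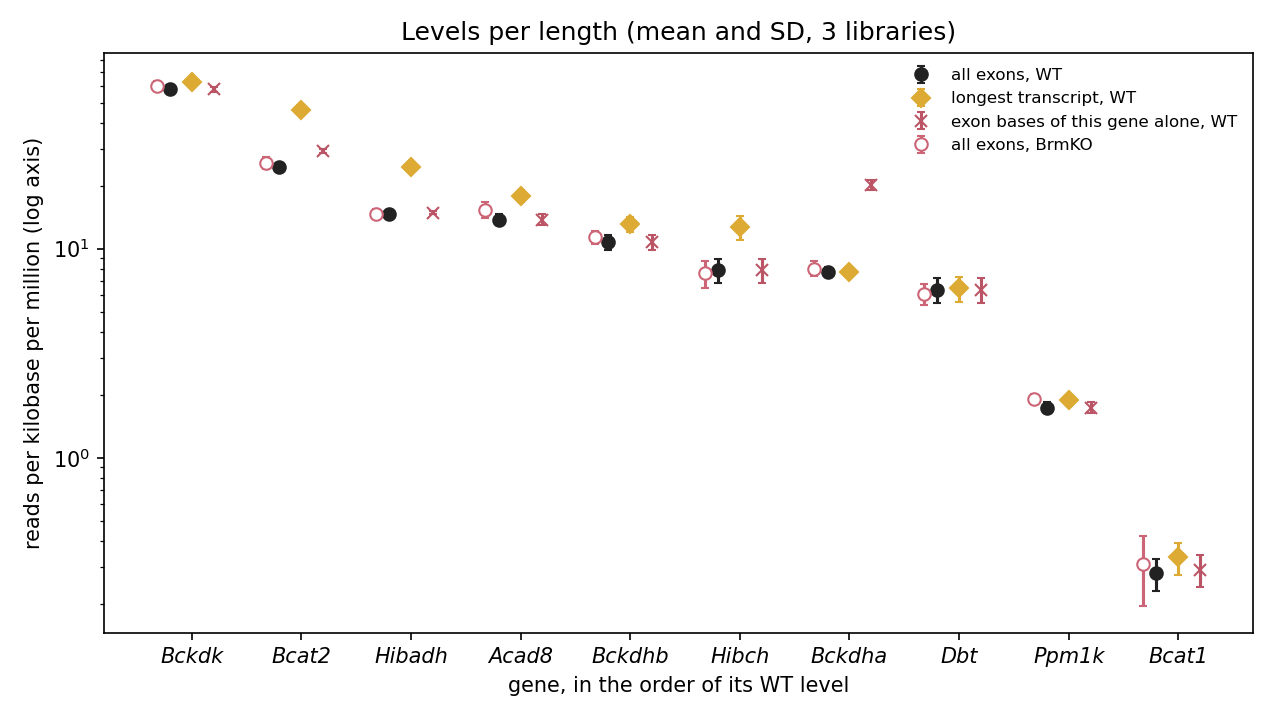
CPM per kilobase (RPKM, log axis) of the 10 genes in the order of their WT level, as mean and SD of 3 libraries, by all exons, by the longest transcript and by exon bases of the gene alone. BrmKO is drawn by all exons. Bckdk lies highest at 57.9 and Bcat1 lowest at 0.281 in WT. When the length leaves out bases shared with other genes, Bckdha moves most, from 7.74 to 20.2, and Bcat2 moves from 24.7 to 29.4.

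The kinase gene was the most abundant of the 10 and the phosphatase gene among the scarcest. Bckdk (ENSMUSG00000030802.14, chromosome 7, 127904082 to 127910221, plus strand) stood at 211, 210 and 221 CPM in WT and 210, 223 and 234 CPM in BrmKO. The groups overlapped at their lower ends, with a log2 fold change of 0.06 ± 0.08 SE (edgeR, adjusted p = 0.999) and an interval of 0.914-fold to 1.18-fold. Ppm1k (ENSMUSG00000037826.5, chromosome 6, 57506502 to 57535468, minus strand) stood at 10.04, 10.17 and 11.17 CPM in WT and 12.1, 10.9 and 11.6 CPM in BrmKO. Its highest WT library, replicate 3, lay above the lowest BrmKO library, replicate 2. The log2 fold change was 0.14 ± 0.15 SE (edgeR, adjusted p = 0.999), with an interval of 0.869-fold to 1.40-fold.

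Per length, Bckdk had 57.9 ± 1.62 RPKM in WT, above 93.7% of the tested genes, and Ppm1k had 1.74 ± 0.102, above 33.2%. The ratio of kinase to phosphatase RNA per library was 34.2, 33.6 and 32.2 for WT, and 28.4, 33.3 and 32.8 for BrmKO. BrmKO replicate 1 lay below all 3 WT libraries, and the other BrmKO libraries lay among them. The means were 33.3 ± 1.02 and 31.5 ± 2.70 (SD, n = 3). These are levels of RNA, and neither protein nor the phosphorylation of BCKDHA was measured.

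Among the valine-specific genes, Acad8 had the smallest p of the 10 genes. Acad8 (ENSMUSG00000031969.16, chromosome 9, 26974135 to 26999566, minus strand) stood at 55.8, 61.0 and 54.3 CPM in WT and 65.0, 68.4 and 57.4 CPM in BrmKO. BrmKO replicates 1 and 2 lay above all 3 WT libraries, while BrmKO replicate 3 lay below WT replicate 2. Means were 57.0 ± 3.49 and 63.6 ± 5.62 CPM, a log2 fold change of 0.16 ± 0.10 SE (edgeR, adjusted p = 0.977). The 95% interval was 0.951-fold to 1.31-fold, and the log2 fold change stayed above 0 under each of 12 alternative fits, from 0.10 to 0.22, with an adjusted p of at least 0.579.

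Hibadh (ENSMUSG00000029776.11, chromosome 6, 52546228 to 52640389, minus strand) was the steadiest of the 10 genes in WT but not in BrmKO. It stood at 153, 149 and 148 CPM in WT, a coefficient of variation of 1.67%. In BrmKO it stood at 142, 159 and 147 CPM, at 5.85%, above Bckdk (5.36%) and Ppm1k (4.93%). The log2 fold change was -0.005 ± 0.08 SE (edgeR, adjusted p = 0.999), and the interval ran from 0.877-fold to 1.13-fold.

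Hibch (ENSMUSG00000041426.12, chromosome 1, 52844929 to 52920986, plus strand) differed by replicate number more than by genotype. It stood at 44.2, 43.9 and 55.1 CPM in WT and 41.5, 43.2 and 54.0 CPM in BrmKO. Both libraries numbered 3 lay above the other 4, which spanned 41.5 to 44.2 CPM. The log2 fold change between genotypes was -0.05 ± 0.14 SE (edgeR, adjusted p = 0.999), with an interval of 0.782-fold to 1.1999-fold. The mean log2 CPM of the libraries numbered 3 lay 0.34 above that of the other 4. Dbt differed the other way, by -0.32. Bcat1 differed by -0.41, but only BrmKO replicate 3 was low, and WT replicate 3 was its highest WT library. The median size of this difference was 0.09 over the 10 genes and 0.21 over all genes tested. Reads that fell on no gene were most frequent in the same libraries, at 8.41% (WT) and 9.29% (BrmKO), and the labels name no batch. What sets these libraries apart was not tested. Without them the log2 fold change of Hibch was -0.06 and that of Dbt -0.09.

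**Figure D3:**
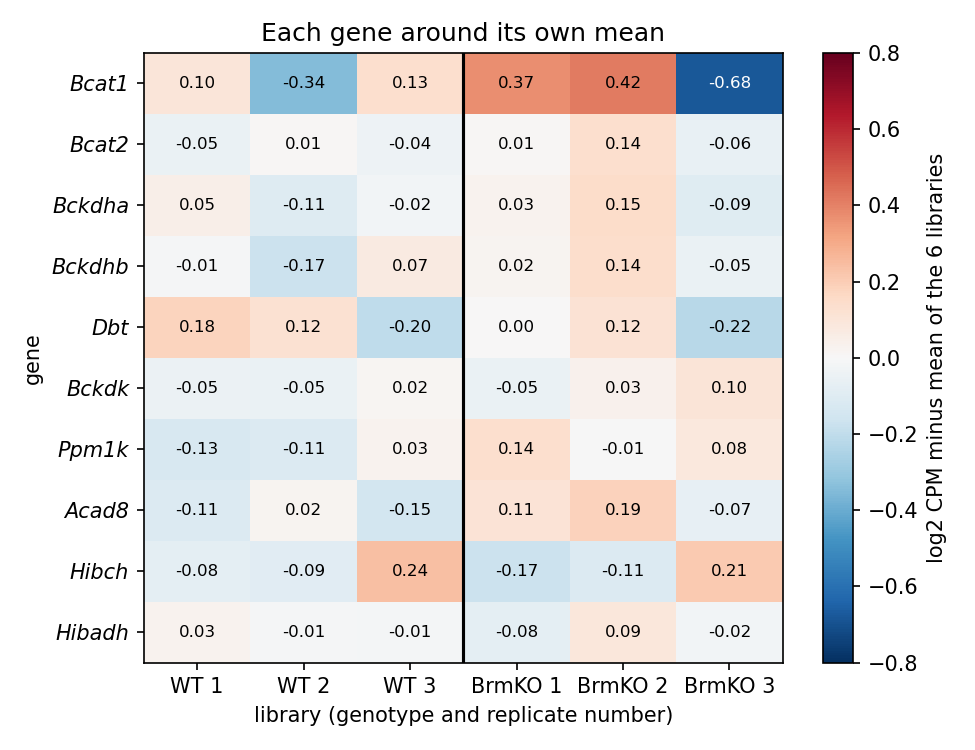
Each cell gives the log2 CPM of a gene in a library minus that gene's mean over the 6 libraries (colour scale), with WT left and BrmKO right of the line. Hibch is at 0.24 and 0.21 in the libraries numbered 3 and below 0 in the other 4, Dbt is at -0.20 and -0.22 there, and Bcat1 varies most, from -0.68 to 0.42.

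The order of the 10 genes by level per length was nearly the same in both genotypes. In WT it ran from Bckdk over Bcat2, Hibadh at 14.7 ± 0.246 RPKM, Acad8 at 13.8 ± 0.843, Bckdhb, Hibch at 7.88 ± 1.05, Bckdha, Dbt and Ppm1k to Bcat1. Neighbours whose WT libraries overlapped were Hibadh with Acad8 and Hibch with Bckdha, and these pairs changed places in BrmKO. All other neighbours were apart in the libraries of either genotype. In WT the longest transcript gave the same order. In BrmKO by that length the pairs kept their WT places, with Hibadh at 24.5 RPKM above Acad8 at 19.9, and Hibch at 12.3 above Bckdha at 8.03. By exon bases no other gene covers, Bckdha moved from place 7 to place 3.

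The other genes of the pathway, 44 in lists of later steps, cofactors, related complexes, carriers and leucine sensors, were read from the same fit. All 44 were tested, 0 had an adjusted p under 0.05 with edgeR, DESeq2 or limma-voom, and 3 had an unadjusted p under 0.05 (6.82%, near the 5.85% of all genes). Their log2 fold changes were split, 22 above 0 and 22 below, with a median of -0.005, and 5 had groups that did not overlap (11.4%, near the 11.1% of all genes). Of the 18 genes of the later catabolic steps with the shared E3, 8 lay above 0 and 10 below, with a median of -0.01 and 0 at an unadjusted p under 0.05.

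Later valine steps and the shared E3 had log2 fold changes from -0.17 to 0.04. Aldh6a1, the dehydrogenase that ends in propionyl-CoA, had the smallest p of these at -0.17 ± 0.11 SE (edgeR, adjusted p = 0.981). Dld had groups apart by a narrow gap, 132.9, 131.1 and 130.8 CPM in WT and 126.0, 129.9 and 121.2 in BrmKO (-0.07 ± 0.08 SE, edgeR adjusted p = 0.999). In the leucine branch Ivd, isovaleryl-CoA dehydrogenase, had the smallest p (0.13 ± 0.10 SE, edgeR adjusted p = 0.999). In the isoleucine branch it was the thiolase Acat1, with 164, 154 and 173 CPM in WT and 177, 184 and 184 CPM in BrmKO. Its groups did not overlap, yet the log2 fold change of 0.15 ± 0.08 SE did not pass (edgeR, adjusted p = 0.930). In the propionyl-CoA branch Mmab, of cobalamin metabolism, led with 0.22 ± 0.13 SE (edgeR, adjusted p = 0.948). The lipoylation genes, which serve to make and attach the cofactor that DBT carries, were led by Lipt2 at -0.19 ± 0.19 SE (edgeR, adjusted p = 0.999).

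The 3 genes with an unadjusted p under 0.05, a share near that of all genes, were the carriers Slc43a1 and Slc43a2 and the phosphatase gene Pdp1. Slc43a1, which encodes the neutral amino acid transporter LAT3, stood at 77.7, 76.5 and 81.0 CPM in WT and 90.1, 101 and 92.6 CPM in BrmKO (log2 fold change 0.27 ± 0.09 SE, edgeR adjusted p = 0.603). Slc43a2, which encodes LAT4, stood at 76.9, 74.0 and 74.2 CPM in WT and 60.3, 65.2 and 66.5 CPM in BrmKO (-0.23 ± 0.09 SE, edgeR adjusted p = 0.751). Both had groups that did not overlap, in opposite directions, and neither passed. Slc25a44, the mitochondrial carrier of branched-chain amino acids, had a log2 fold change of 0.09 ± 0.14 SE. Among the leucine sensors Sesn2 had the smallest p, at 0.12 ± 0.14 SE (edgeR, adjusted p = 0.999).

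The related 2-oxoacid dehydrogenase complexes offer a scale for the BCKDH genes. In WT the pyruvate dehydrogenase E1 genes Pdha1 and Pdhb had 33.4 ± 4.16 and 59.4 ± 0.756 RPKM, and its E2 gene Dlat had 19.1 ± 1.78. The oxoglutarate dehydrogenase genes Ogdh and Dlst had 89.6 ± 11.3 and 21.9 ± 1.85 RPKM (SD, n = 3). Each of these 5 exceeded Bckdhb and Dbt, and also Bckdha by all exons. With its whole count divided by unshared bases only, Bckdha, at 20.2, lay above Dlat at 19.1. The shared Dld had 35.7 ± 0.304 RPKM. The kinase Bckdk, at 57.9, lay above the pyruvate dehydrogenase kinases Pdk1 (20.4 ± 1.68), Pdk2 (12.6 ± 0.378), Pdk3 (44.6 ± 1.85) and Pdk4 (0.349 ± 0.110). The phosphatase Ppm1k, at 1.74, lay below the pyruvate dehydrogenase phosphatases Pdp1 (7.37 ± 0.709) and Pdp2 (2.93 ± 0.554). The E1 and E2 subunit genes of the BCKDH complex thus lay below their counterparts by all exons, and its kinase gene lay above and its phosphatase gene below theirs.

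Pdp1 was the only gene of the related complexes with an unadjusted p under 0.05. It stood at 30.5, 36.7 and 32.4 CPM in WT and 28.7, 25.8 and 24.8 CPM in BrmKO. All BrmKO libraries lay below all WT libraries, and the log2 fold change of -0.33 ± 0.12 SE did not pass (edgeR, adjusted p = 0.746). The first dehydrogenases of the 3 branches also differed in level per length. In WT Ivd of leucine had 24.6 ± 1.22 RPKM, Acad8 of valine 13.8 ± 0.843 and Acadsb, the gene for the isoleucine step, 4.59 ± 0.092. That order was the same by the longest transcript, at 36.9, 17.9 and 5.42.

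**Figure D4:**
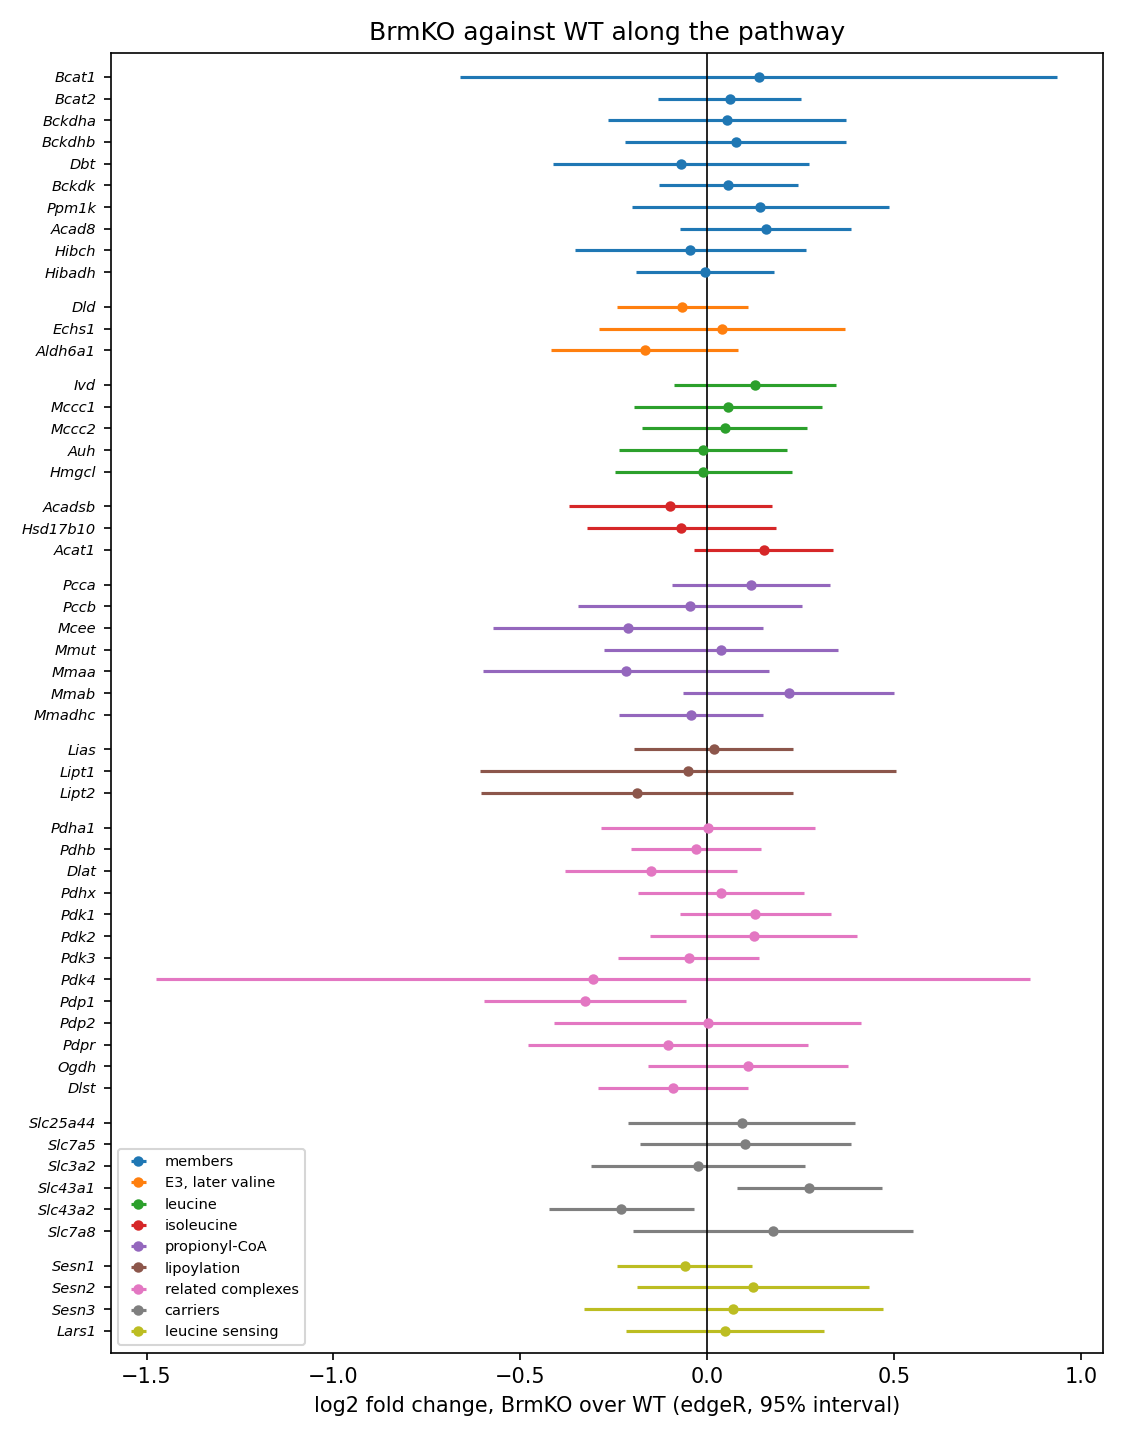
Log2 fold change of BrmKO over WT with its 95% interval (edgeR) for the 10 genes and the 44 other genes of the pathway, coloured by list. The intervals of all 10 cross 0, those of Bcat1 and Pdk4 are the widest, and those of Slc43a1, Slc43a2 and Pdp1 do not cross 0 before adjustment.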

How the data were processed

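Polyadenylated RNA of sorted LSK cells was amplified and sequenced with a SMART-Seq v4 kit, per the labels' protocols. The deposited files hold raw read counts for each Ensembl gene, 1 file a library, made by the authors with STAR and HTSeq on GRCm38, per the submitters' processing notes. The sources used here give no versions and no annotation release. Rows that name no gene were left out of totals and tests. Symbols, exons and lengths came from GENCODE M21 of GRCm38 (55227 of 55487 genes matched). Genes were compared with edgeR 4.0.16 in R 4.3.3 (quasi-likelihood, robust, TMM, filterByExpr, no covariate, all 6 libraries, n = 3 a group), adjusted over 15691 genes with a threshold of 0.05, after a test on simulated data. The SE is the size of the log2 fold change over the root of F, and intervals are 95% from the same fit. CPM used TMM-scaled library totals, and 0.01 CPM was added for deviations between libraries. Alternatives used RLE factors, DESeq2 1.42.0, limma-voom 3.58.1, no filter, a block, each library left out, and both libraries numbered 3 left out.

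Members, lists and motifs were chosen with earlier results of these data known. All members were named, and from each list the genes with an unadjusted p under 0.05 and the gene with the smallest p. Genes named for a comparison of levels, Slc25a44 and Dld were chosen after their values were seen. A search with minimap2 found no copy of a member at 95% identity over 50% of its length. No library pair agreed within sampling noise. Protein sequences were not used here. The kit carries no molecular identifiers, so reads are not counts of molecules. The SE and intervals rest on the spread between libraries as edgeR estimates it, partly from other genes and not from each gene alone.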

Additional observations from a re-analysis of the deposited data

How the results depend on the processing

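The counts of 0 of 10 enzyme genes and 0 of 44 other pathway genes past the threshold were the same under all 12 alternative fits. The smallest unadjusted p of any of the 10 was 0.0604, for Acad8 without both libraries numbered 3. Over all genes the number past the threshold was 22, and it was 150 with DESeq2, 58 with no low-count filter and 6 to 36 with a library left out (7, 6 and 36 on leaving out WT replicates 1, 2 and 3, and 9 on leaving out BrmKO replicate 1). With the replicate block it was 25, and the block called 0 of the 10. The replicate numbers do not pair the mice by any label, and deviations of same-numbered libraries correlated at 0.05, 0.01 and 0.19 over genes. Not every library correlated best with its own number. The libraries numbered 3 did stand apart in a principal component analysis of log2 CPM over the genes tested. On PC2, with 25.0% of the variance, they lay at -43.9 (WT) and -34.6 (BrmKO), and the others at 11.7 to 28.8. The sign of 5 of the 10 log2 fold changes turned with a library left out, none past the threshold, with ranges of -0.040 to 0.417 for Bcat1, -0.0091 to 0.111 for Bckdha, -0.178 to 0.018 for Dbt, -0.174 to 0.068 for Hibch and -0.053 to 0.035 for Hibadh. The signs of Bcat2, Bckdhb, Bckdk, Ppm1k and Acad8 were the same under all 12.

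Length moved ratios between genes. By the longest transcript, Bcat2 to Bcat1 was 142 in WT and 146 in BrmKO, Bckdha to Bckdhb 0.591 and 0.580, and Bckdhb to Dbt 2.07 and 2.26. By bases no other gene covers, Bcat2 to Bcat1 was 104 and 106, and Bckdha to Bckdhb 1.88 and 1.85. Bcat2 shares 15.9% of its exon bases with another gene. Of the 10 genes, Bcat1 had the fewest reads, 57 to 103 a library.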
